A study of Danio rerio with 370 samples.

Results

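GABAergic and glutamatergic neurons of the adult zebrafish forebrain were separated cell by cell, by the genes that make or load their transmitter. A cell was taken as GABAergic when at least 1 read fell on GAD2 or on either GAD1 gene, the glutamate decarboxylases that make GABA, and no read fell on SLC17A6, the transporter that fills synaptic vesicles with glutamate. A glutamatergic cell had at least 1 read on either of the 2 SLC17A6 identifiers and none on the decarboxylases. Of 370 sequenced cells, 199 came from the neuronal gates and 191 of these passed the quality filters. Of these 191, the rule placed 24 as GABAergic and 84 as glutamatergic. Reads of both kinds were found in 9 cells, and 74 cells had neither.

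All cells came from adult fish carrying both reporters, her4.1:mcherry and elavl3:gfp, and from the telencephalon with the anterior diencephalon. The her4.1 promoter drives mCherry in radial glia, whose neuronal daughters keep the protein for a time, and the elavl3 promoter drives GFP in neurons. The NBN gate (newborn neurons) held mCherry-low, GFP-positive cells, the MN gate (mature neurons) mCherry-negative, GFP-positive cells, and the RG gate (radial glia) mCherry-high, GFP-negative cells. NBN cells came from 6 fish, namely fish 1 to 5 of batch bfx855 and the fish of batch bfx811. All MN cells came from the last of these, so that gates can be compared within 1 fish only. Cells of bfx811 are named without a number for the animal, and were treated as coming from a single fish. Single cells were sequenced with SMART-seq2, which reads full-length transcripts without molecular identifiers. Intervals on shares of cells cover counting error only, and those on reads also take amplified copies as independent.

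In the vertebrate forebrain, GABAergic neurons arise mostly from ventral regions, where the homeodomain factors DLX1, DLX2, DLX5 and DLX6 act in their progenitors and precursors and are known to promote expression of the decarboxylases. Glutamatergic neurons of the dorsal telencephalon (pallium) pass through a sequence of factors that in the mouse cortex runs from EOMES through members of the NEUROD family to TBR1. Symbols are given as the gene table pairs them with the identifiers of the count table, many of them in human form. Where a symbol stands for 2 identifiers, as is common after the genome duplication of teleosts, reads of near-identical copies could have been split between them.

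The reads that made the classes differed in number between the gates. In the NBN gate, the 14 GABAergic cells held 1 to 2799 decarboxylase reads (median level 539 CPM, the reads of a gene scaled to a common library total), and 1 cell, of fish 5, was placed by a single read. The 69 glutamatergic cells of that gate held 1, 58 and 381 SLC17A6 reads, 2 of them 1 read only and 14 fewer than 5. In the MN gate the 10 GABAergic cells held 279, 369 and 1974 decarboxylase reads and the 15 glutamatergic cells 2, 92 and 380 SLC17A6 reads. Just outside the rule, the 8 NBN cells with reads of both kinds included 2 with a single decarboxylase read beside 216 and 218 SLC17A6 reads. The same rule applied to 73 cells of the RG gate placed 3 as GABAergic (4.11%) and 2 as glutamatergic (2.74%), against 14 (8.54%) and 69 (42.1%) of the NBN cells that passed the filters. Members were chosen by these reads, so the values are a description and were not tested.

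Both classes carried neuronal markers and hardly any of blood or vessel cells. ELAVL3, the neuronal RNA-binding protein behind the reporter, had reads in 14 of 14 and 66 of 69 NBN cells and in all 25 MN cells. The summed level of the neuron marker list had a median of 11260 CPM in GABAergic and 11280 CPM in glutamatergic NBN cells. All 10 identifiers for microglia and blood were at 0 in the GABAergic NBN cells and the list reached at most 862 CPM in a glutamatergic cell, and all 7 vessel identifiers were at 0 in the former. Radial glia markers, which include her4.1 itself, summed to medians of 1397 and 977 CPM in GABAergic and glutamatergic NBN cells (0 to 10330 and 0 to 35010), with 8 and 1 of 16 identifiers at 0. The oligodendrocyte list of 15 identifiers summed to medians of 157.2 and 391 CPM (0 to 2725 and 0 to 4302), with SOX10 at 0 in every member. Their part in the results below was not tested.

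Depth was compared within fish. Reads per cell had medians of 279374 in GABAergic and 242719 in glutamatergic NBN cells, and genes with at least 1 read had medians of 1482 and 1675. In the 3 fish with at least 3 GABAergic cells, the difference in median reads (GABAergic minus glutamatergic) was 121205, -11132 and -26078 in fish 2, 4 and 5, an average of 27998 (exact two-sided sign-flip test, p = 1, the smallest possible p being 0.25). The difference in genes averaged -269 (p = 1). MN cells of the classes had medians of 192194 and 187039 reads and of 2228 and 2489 genes.

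GABAergic cells made up a larger part of the members in the MN gate than in the NBN gate. They were 10 of 25 in the MN gate (40%, 95% exact interval 21.1 to 61.3) and 14 of 83 in the NBN gate (16.9%, 9.54 to 26.7), and the intervals overlap. Within the NBN gate the batches gave 17.1% (12 of 70) for bfx855 and 15.4% for bfx811. Each fish had 1 to 3 GABAergic and 9 to 14 glutamatergic NBN cells. Within the fish of batch bfx811, which gave both gates, GABAergic cells were 2 of 13 members in the NBN gate (1.92 to 45.5) and 10 of 25 in the MN gate, with overlapping intervals and no test over fish.

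DLX genes were read in GABAergic cells of every fish and of both gates, and in no glutamatergic cell. In the NBN gate, 10 of 14 GABAergic cells had a read of DLX1, DLX2, DLX5 or DLX6 (71.4%, 41.9 to 91.6), and in 8 of them at least 2 of the 4 genes were read. None of the 69 glutamatergic cells had any, a count that allows at most 4.35%. The DLX cells were spread over the fish, as 2 of 2 GABAergic cells in fish 1, 3 of 3 in fish 2, 1 of 1 in fish 3, 1 of 3 in fish 4, 2 of 3 in fish 5 and 1 of 2 in the fish of batch bfx811. All 10 GABAergic cells of the MN gate had DLX reads and none of the 15 glutamatergic ones, which allows up to 20%. For single genes the cell counts were 8 of 14 for DLX1, 8 for DLX2, 6 for DLX5 and 3 for DLX6 in the NBN gate, and 5, 6, 9 and 6 of 10 in the MN gate. A second identifier for DLX2 had reads in 3 GABAergic NBN cells and in no MN cell. Of 3244 genes read in at least 3 GABAergic NBN cells, rule genes left out, 12 (0.370%) were read in no glutamatergic cell of that gate, and 5 of these are DLX identifiers. LHX6 is another, and the rest are RSPH3, METTL16, TTC32, NWD2, VIPAS39 and 1 identifier without a symbol, each read in 3 cells and named here only for that count. In the MN gate 3.49% of 3041 such genes were read in no glutamatergic cell. In the other direction, 77 of 2812 genes read in at least 14 glutamatergic NBN cells (2.74%) and 824 of 5386 read in at least 3 glutamatergic MN cells (15.3%) were read in no GABAergic cell. In the NBN gate a gene had to be unread in 69 cells for the first count and in only 14 for the second. The cut-offs also differ as shares of cells, so percentages of the 2 directions are not comparable. Reads of these cells depend on depth, and after thinning each cell to 20000 reads the DLX1 count was 7 of 14, that of DLX2 and DLX5 5 each and that of DLX6 2, with 0 of 69 on the other side for each.

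**Figure D1:**
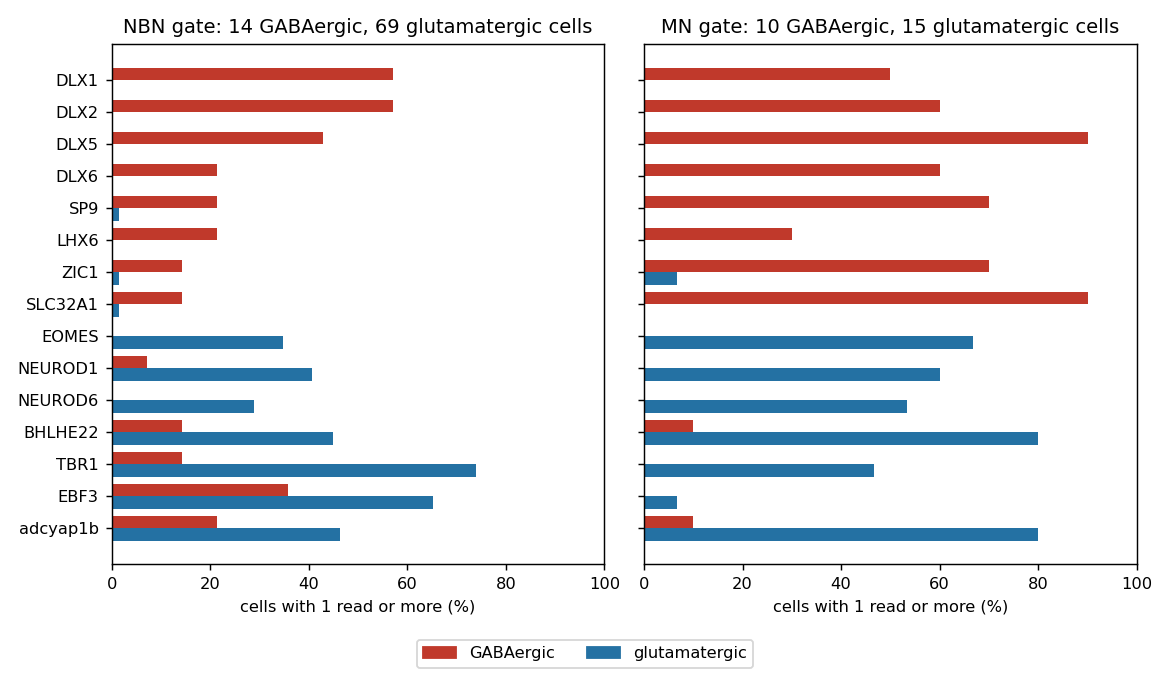
Share of cells with at least 1 read (x axis, percent) of 15 genes (y axis) in GABAergic (red) and glutamatergic (blue) cells of the NBN gate (left, 14 and 69 cells) and the MN gate (right, 10 and 15 cells). DLX1, DLX2, DLX5, DLX6 and LHX6 have no blue bar in either gate, and EOMES and NEUROD6 (1 of its 2 identifiers) have no red bar in either.

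For the test across genes, reads were summed per fish and class in the NBN gate, since cells of 1 fish are not independent replicates. Sums of at least 3 cells were kept. This left 3 GABAergic sums (fish 2, 4 and 5, of 3 cells and 686878 to 1131724 reads each) and 6 glutamatergic sums (9 to 14 cells and 1494792 to 5839818 reads). The sums are therefore uneven, and 2268 of the 7462 tested genes were at 0 in all 3 GABAergic sums, against 2 at 0 in all 6 glutamatergic ones. The fitted log2 fold change (GABAergic over glutamatergic) had a median of -1.35 over all tested genes, and of -0.83 with a different scaling of the libraries (RLE), so values are to be read against this shift. The quasi-likelihood test of edgeR, adjusted after Benjamini and Hochberg, called 9 of 7462 genes (0.121%) at 0.05, 1 of them higher (0.0134%) and 8 lower (0.107%) in GABAergic sums. At an unadjusted p under 0.05 there were 2488 genes, 7 higher and 2481 lower. DESeq2 called 0.301% of its tested genes higher and 23.3% lower, so that the number of lower genes depends on the tool.

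DLX2 was the gene called higher. Like DLX5 below, it passed the filter on low counts through its GABAergic sums alone, so its p-value is given as a description. Its level was 761, 232 and 525 CPM in the GABAergic sums of fish 2, 4 and 5 (506 ± 265, SD, n = 3), and 0 in all 6 glutamatergic sums. The groups did not overlap, and the level was at least 3226-fold higher against a floor of 3 reads over the 6 glutamatergic sums (edgeR adjusted p = 0.0149). That bound counts amplified reads and not cells. By cells DLX2 was read in 8 of 14 against 0 of 69, and the latter allows up to 4.35%. Blocking on fish lost the call (adjusted p = 0.883), and it was also lost without fish 1, 2, 3 or the fish of batch bfx811, with adjusted p from 0.0543 to 0.0814, and with plates in place of fish (0.113). DLX5 showed the same arrangement at 237, 300 and 294 CPM against 0 in every glutamatergic sum. It was at least 1767-fold higher by the same floor on reads, not cells, and stood just outside the threshold (edgeR adjusted p = 0.0615, block 0.883). In fish 4 all reads of DLX2 and of DLX5 came from 1 of the 3 cells summed, the same cell for both. In fish 5 all DLX5 reads likewise came from 1 cell. The closeness of the 3 DLX5 levels therefore rests largely on single cells. DLX1 and DLX6 were left out by the filter on low counts. Each was read in 2 of the 3 GABAergic sums, DLX1 at 155.5 and 563 CPM and DLX6 at 598 and 516 CPM in fish 2 and 5.

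The next genes by p in this direction did not pass the test. CITED1, a transcriptional coactivator, had 26.5, 128.1 and 230 CPM in GABAergic sums and 0 to 4.68 CPM in glutamatergic ones. FBXW7, the substrate-binding part of a ubiquitin ligase, had 32.7, 2.91 and 551 CPM against 1.22 to 9.37 CPM, with overlap, and igsf9ba, an immunoglobulin-family gene, had 131.7, 428 and 324 CPM against 0 to 23.9 CPM. All 3 had an adjusted p of 0.133. In the MN gate each was read in at most 1 GABAergic cell.

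EOMES and NEUROD1 were lower in GABAergic sums. Both passed the filter on low counts through the glutamatergic sums alone, so their p-values are likewise a description. EOMES, a T-box factor of intermediate progenitors and young glutamatergic neurons in the mouse cortex, was at 0 in the 3 GABAergic sums and at 133.3, 551 and 1258 CPM (lowest, median and highest) in the glutamatergic ones. It was at least 517-fold lower against a floor of 3 reads over the 3 GABAergic sums (edgeR adjusted p = 0.00371, block 0.00166). That bound counts reads and not cells, of which each of these sums held only 3. The call was lost without fish 3 (adjusted p = 0.0543), after thinning (0.204, with 1 GABAergic sum left) and with limma (0.354). NEUROD1, a basic helix-loop-helix factor of neuronal differentiation, was at 0 in the 3 GABAergic sums against 81.6, 282 and 1084 CPM. The 1 GABAergic NBN cell with NEUROD1 reads came from a fish without a GABAergic sum. In the summed reads alone the level was at least 421-fold lower (edgeR adjusted p = 0.0108, block 0.0258). This call was lost in 5 alternatives, namely without fish 1 (0.0552) or fish 3 (0.0543), with plates in place of fish (0.113), after thinning (0.235) and with limma (0.354). For both genes the groups did not overlap. By cells, EOMES was read in 0 of 14 GABAergic and 24 of 69 glutamatergic NBN cells and was lower in 6 of 6 fish. NEUROD1 was read in 1 of 14 and 28 of 69 and was lower in 5 of 6 fish. Each fish held few GABAergic cells, so a gene read in hardly any of them comes out lower in most fish. Such counts of fish, here and below, largely follow from the counts of cells and are no replication over fish. In the MN gate the counts were 0 of 10 against 10 of 15 for EOMES and 0 of 10 against 9 of 15 for NEUROD1.

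**Figure D2:**
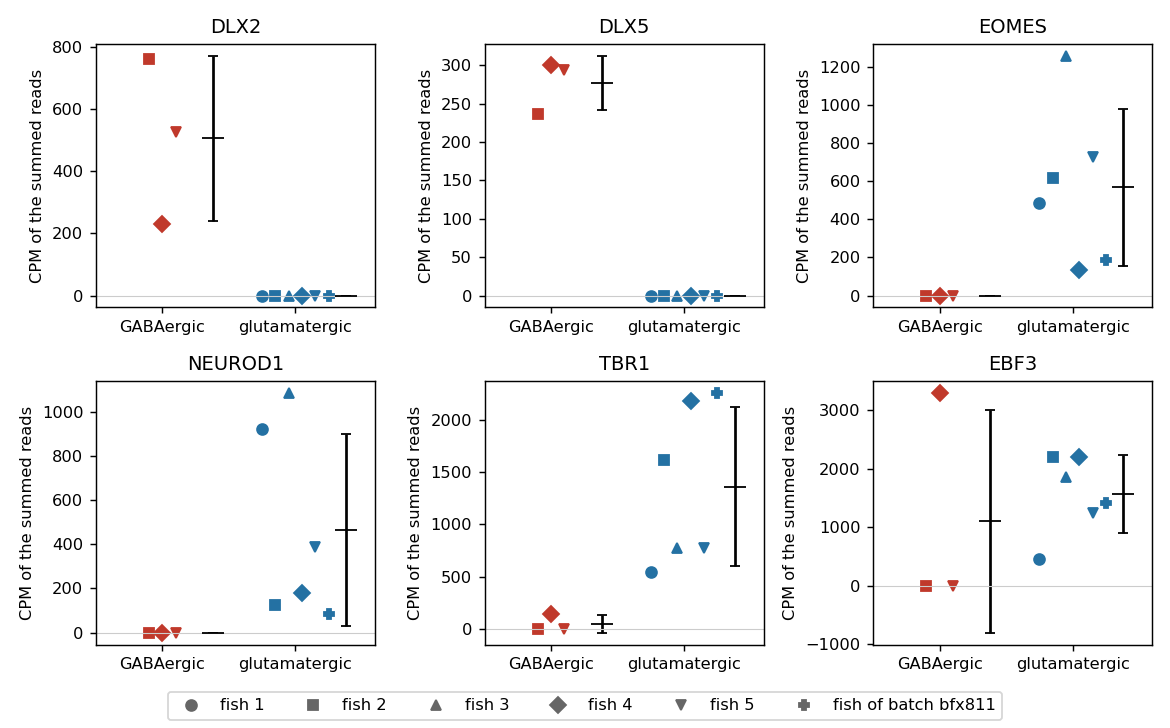
Level in CPM (y axis) of 6 genes in reads summed per fish and class in the NBN gate, with 1 symbol per fish, and the mean with its SD as a bar beside each group (3 GABAergic sums in red, 6 glutamatergic sums in blue). DLX2 and DLX5 lie on 0 in all glutamatergic sums, EOMES and NEUROD1 on 0 in all GABAergic sums, and for EBF3 the groups overlap, with the GABAergic sum of fish 4 at 3298 CPM.

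Of the other 6 genes that passed the test, 5 have broad roles in cells, and these 5 too passed the filter through the glutamatergic sums alone. CADM4 (a cell adhesion protein), CAMK4 (a calcium- and calmodulin-dependent kinase), rhoaa (a RhoA GTPase), PSMC6 (an ATPase of the proteasome) and CSNK1D (a casein kinase) were at 0 in all GABAergic sums and averaged 252 to 303 CPM in glutamatergic ones, with adjusted p from 0.0161 to 0.0426. Under the block none of the 5 was called, with adjusted p from 0.418 to 0.883, and each lost its call in 12 to 16 of the alternatives. They were read in 1 or 2 of 14 GABAergic and 22 to 35 of 69 glutamatergic NBN cells. In the MN gate they were read in 3 to 6 of 10 GABAergic and 5 to 12 of 15 glutamatergic cells, CSNK1D in 6 and 5. The last gene, ENSDARG00000080337, has no symbol and was abundant in every sum, at 12711, 13474 and 6103 CPM in GABAergic and 15240, 20710 and 43508 CPM (lowest, median and highest) in glutamatergic sums. Its log2 fold change was -1.82 ± 0.35 (SE, adjusted p = 0.0292, block 2.04e-07), beside a median of -1.35 over all genes. It lost its call in 13 alternatives, DESeq2 among them (adjusted p = 0.656).

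The count of calls rested on few libraries. It was 0 without fish 3 (edgeR, 1852 genes at an unadjusted p under 0.05), 1 without fish 1, 2 without the fish of batch bfx811 and 42 without fish 4, all 3 of whose GABAergic cells had EBF3 reads, 1 of them a single read. Without fish 2, 4 or 5 only 2 GABAergic sums enter the fit. Blocking on fish gave 6 genes (0.0804%), all lower in GABAergic sums, and 3 of them (EOMES, NEUROD1 and ENSDARG00000080337) were among the 9. The others were TBR1, EBF3 and GRIN1, which passed the filter on low counts through the glutamatergic sums, so that their p-values are a description.

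Ventral forebrain factors were read mainly in GABAergic cells. Of 33 identifiers in the list, 3 passed the filter, 1 rose (DLX2) and none fell (0.0134% over all genes). DLX2 and DLX5 passed the filter through the GABAergic sums alone, so that nothing is read from the list's fitted values. By cells, 11 of the 12 identifiers read in at least 3 NBN members had a higher share in GABAergic cells (median difference 21.4 percentage points, all genes -1.55), PAX6 being the exception. All 9 so read in the MN gate were higher (median 50 points, all genes -3.33). SP9, a zinc finger factor of striatal and other ventral neurons in mouse, was read in 3 of 14 against 1 of 69 and in 7 of 10 against 0 of 15. LHX6, which marks interneurons of the medial ganglionic eminence in mouse, was read in 3 of 14 against 0 of 69 and in 3 of 10 against 0 of 15. The 3 NBN cells with LHX6 were 1 of fish 3 and 2 of fish 5. NKX2-1, which lies upstream of LHX6 in mouse, was read in 3 of 14 against 2 of 69 NBN cells and in no MN member. MEIS2 (1 identifier) was read in 1 of 14 and 0 of 69 NBN cells and in 4 of 10 and 0 of 15 MN cells. ZIC1, a zinc finger factor from the list of other glutamatergic and diencephalic factors, was read in 2 of 14 against 1 of 69 and in 7 of 10 against 1 of 15. By shares of cells that list had 4 identifiers higher and 8 lower in GABAergic NBN cells, beside 4980 and 6746 over all genes. In the MN gate 1 of them, ZIC1, was higher and 2 were lower, beside 2551 and 4321 over all genes. With so few identifiers no lean of the list is read from these counts.

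Dorsal telencephalic factors were read mainly in glutamatergic cells. Of 22 identifiers, 10 passed the filter, 2 fell (EOMES and NEUROD1) and none rose, beside 0.107% of all tested genes that fell. EOMES and NEUROD1 passed the filter through the glutamatergic sums alone, so that nothing is read from the list's fitted values. By cells, 15 of 16 identifiers read in at least 3 NBN members had a lower share in GABAergic cells (median -14.5 points, all genes -1.55), as had 9 of 11 in the MN gate (median -40 points, all genes -3.33). TBR1, a T-box factor of postmitotic glutamatergic neurons, was at 0.88, 142.7 and 0 CPM in GABAergic sums and at 547, 1198 and 2255 CPM (lowest, median and highest) in glutamatergic ones. The groups did not overlap. TBR1 had a log2 fold change of -5.73 ± 1.39 (SE, adjusted p = 0.0791), and passed under the block (adjusted p = 4.88e-06). TBR1 and emx3 (below) passed the filter on low counts through the glutamatergic sums, so their p-values are a description. TBR1 was read in 2 of 14 and 51 of 69 NBN cells, lower in 6 of 6 fish, and in 0 of 10 and 7 of 15 MN cells. In the paper tbr1b also marks a group of newborn neurons placed in the diencephalon, together with ebf3a. TBR1 reads therefore do not set the region of a cell, and many glutamatergic cells with TBR1 also had EBF3 reads (below). One identifier of NEUROD6 was at 0 in all GABAergic cells, 0 of 14 and 0 of 10, and was read in 20 of 69 and 8 of 15 glutamatergic cells. With both identifiers counted, NEUROD6 was read in 2 of 14 and 31 of 69 NBN cells and in 0 of 10 and 10 of 15 MN cells. BHLHE22 was read in 2 of 14 and 31 of 69 NBN cells, and in 1 of 10 and 12 of 15 MN cells. emx3, a pallial homeobox gene, was read in 0 of 14 and 14 of 69 NBN cells, lower in 5 of 6 fish (adjusted p = 0.0724, block 0.883), and in 1 of 10 and 1 of 15 MN cells. An exception was bcl11ba, read in 2 of 14 and 16 of 69 NBN cells and in 8 of 10 and 3 of 15 MN cells. Its mammalian counterpart BCL11B is known from corticospinal neurons and also from striatal neurons, which are GABAergic.

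The cells of the NBN gate placed as GABAergic did not all carry the same genes. EBF3, a helix-loop-helix factor of the EBF family, was read in 5 of them (in 2 by a single read) and in 45 of 69 glutamatergic cells. The 3 cells with more than 1 EBF3 read held 268, 1097 and 1167 of them, and also reads of UNCX, a homeobox gene (at most 493), and of kcnj19a, a gene of the inward rectifier potassium channels (71, 405 and 76). They had no DLX, SP9 or LHX6 reads, and held 8, 247 and 6 decarboxylase reads. Of these cells 1 came from the fish of batch bfx811 and 2 from fish 4. The remaining cell without DLX was the one placed by a single read, and it held 378 reads of NEUROD6, 190 of BHLHE22 and 1793 of adcyap1b, with no tubb5 reads. tubb5, a beta-tubulin gene of young neurons, was read in 9 of the 10 DLX cells and in none of the other 4. The combination of EBF3, UNCX and kcnj19a without DLX was found in 25 of 69 glutamatergic cells and in no member of the MN gate. Whether the 4 cells without DLX were placed in the GABAergic class through missed SLC17A6 reads was not tested.

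**Figure D3:**
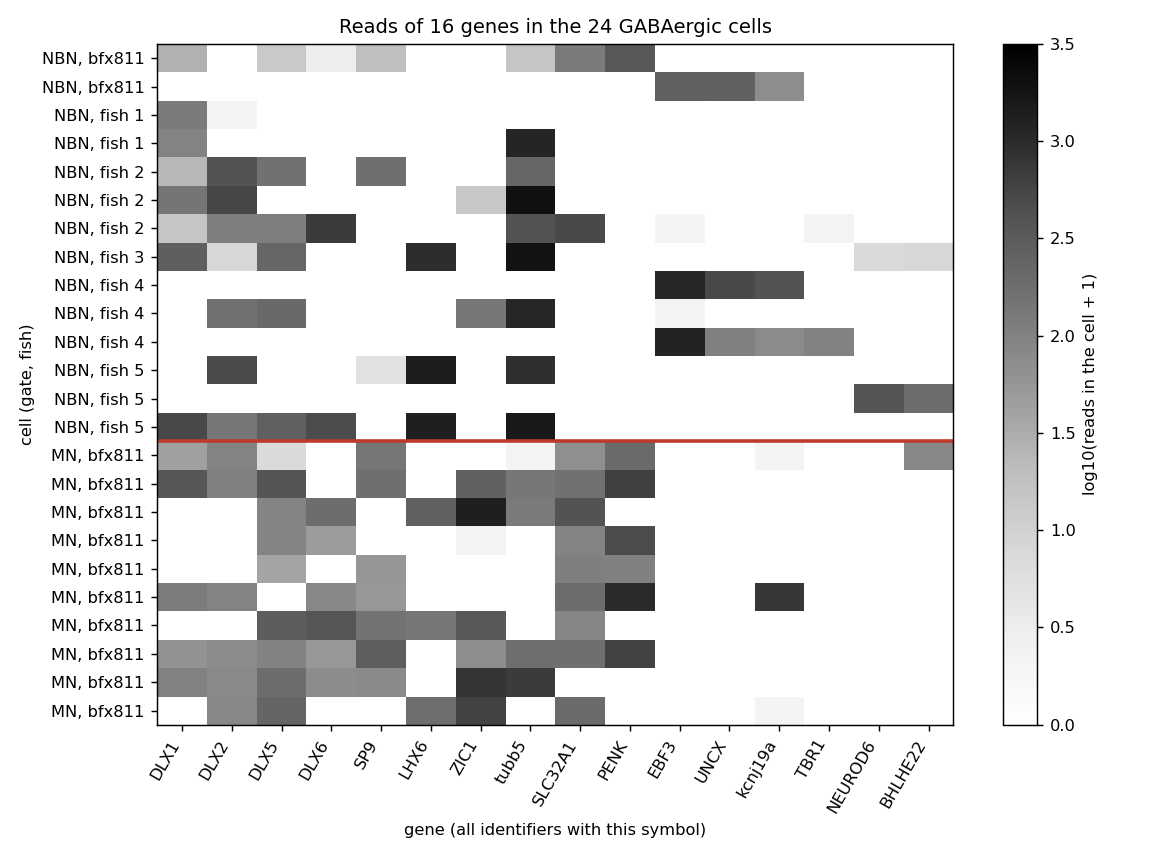
Reads, as log10(reads + 1) in grey, of 16 genes (x axis) in each of the 24 GABAergic cells (y axis, named by gate and fish), with the NBN gate above the red line and the MN gate below it. All 10 MN cells and 10 of 14 NBN cells have reads of DLX genes, and 3 NBN cells have EBF3, UNCX and kcnj19a reads instead.

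EBF3 levels overlapped between the classes. They were 0.88, 3298 and 0 CPM in the GABAergic sums of fish 2, 4 and 5, and 463, 1631 and 2203 CPM (lowest, median and highest) in the glutamatergic ones. The log2 fold change was -1.39 ± 1.31 (SE, adjusted p = 0.633), and the block gave 0.000134. EBF3 passed the filter on low counts through the glutamatergic sums, so these p-values are a description. The fits differ in their call for a gene whose GABAergic sum of fish 4 lies above every glutamatergic sum. The MN gate had EBF3 reads in 0 of 10 and 1 of 15 cells.

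Within the glutamatergic class the EBF3 cells also differed from the others in what they carried, given here as counts without a test. TBR1 was read in 36 of 45 EBF3 cells and 15 of 24 others, and UNCX (first identifier) in 24 and 4. kcnj19a was read in 32 of 45 and 0 of 24, and lhx5, a LIM homeobox gene of the diencephalon among other regions, in 13 and 0. tubb5 was read in 20 of 45 and 21 of 24, EOMES in 10 and 14, and NEUROD1 in 11 and 17. The NEUROD6 identifier at 0 in all GABAergic cells was read in 7 and 13.

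The vesicular GABA transporter separated the classes in the MN gate and was rare in the NBN gate. SLC32A1, which loads GABA into vesicles, was read in 9 of 10 GABAergic MN cells (55.5 to 99.7%) and in 0 of 15 glutamatergic ones. In the NBN gate it was read in 2 of 14 and 1 of 69 cells, so that most GABAergic cells of this gate showed a decarboxylase without the vesicular transporter. The 2 GABAergic NBN cells of the fish that also gave the MN cells include 1 with SLC32A1. None of the 3 genes of this list that passed the filter was called, nor any of the 4 for glutamate synthesis and release. Over all tested genes 0.121% were called. SLC17A7, a second vesicular glutamate transporter and no part of the rule, was read in 0 of 14 and 1 of 69 NBN cells and in 0 of 10 and 4 of 15 MN cells.

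Among the peptide genes, PENK and adcyap1b leaned in opposite directions in the MN gate. PENK (1 identifier), which encodes proenkephalin, a marker of one kind of striatal projection neuron in mammals, was read in 1 of 14 and 0 of 69 NBN cells and in 6 of 10 and 2 of 15 MN cells, at 1490 and 54.6 CPM of the summed MN reads (exact Poisson intervals 1438 to 1545 and 46.3 to 63.8). adcyap1b, for the peptide PACAP, leaned the other way, with 3 of 14 and 32 of 69 NBN cells and 1 of 10 and 12 of 15 MN cells. Its level in the summed MN reads was 0.50 CPM in the GABAergic and 2179 CPM in the glutamatergic class. In the NBN sums it did not pass the test (adjusted p = 0.874). Over the list of peptides and calcium-binding proteins, 4 of 20 identifiers passed the filter and none was called, beside 0.121% of all tested genes.

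Receptor and channel genes gave no call between the NBN classes in the fit without a block. That fit called 0.121% of all tested genes. Of 24 identifiers for GABA and glycine receptors 12 were tested, of 33 for glutamate receptors 18, and of 29 for potassium and calcium channels 20, with median log2 fold changes of -4.80, -1.65 and -3.43. With genes at 0 set to their bound the first of these was -2.51. Over all tested genes the median was -1.35. Of identifiers read in at least 3 NBN members, 3 GABA and glycine receptors had a higher share in GABAergic cells and 15 a lower one. For glutamate receptors these counts were 14 and 13, for the channels 12 and 14, and over all genes 4980 and 6746. GRIN1, the obligate subunit of NMDA receptors, was at 179, 0 and 0 CPM in GABAergic sums and at 73.4, 665 and 1669 CPM in glutamatergic ones for 1 of its 2 identifiers. This identifier was not called in the fit without a block (adjusted p = 0.133) and was called with it (adjusted p = 0.0258). It passed the filter on low counts through the glutamatergic sums, so these p-values are a description. It was read in 2 of 14 and 39 of 69 NBN cells, lower in 6 of 6 fish, in 33 of the 45 glutamatergic cells with EBF3 and 6 of the 24 without, and in 5 of 10 and 11 of 15 MN cells. GABRA5, a subunit of the GABA-A receptor, was read in 1 of 14 and 15 of 69, and in 0 of 10 and 9 of 15.

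None of the 14 tested identifiers for genes of young neurons was called, nor any of the 13 for mature synapses. Over all tested genes 0.121% were called, so the lack of calls does not set these lists apart. The median log2 fold changes of these lists were -0.30 and -0.85, beside -1.35 for all genes. tubb5 was read in 9 of 14 and 41 of 69 NBN cells and in 5 of 10 and 4 of 15 MN cells, with a higher share in GABAergic cells in 4 of 6 fish. tmsb, a thymosin gene, was read in 11 of 14 and 38 of 69 NBN cells, higher in 5 of 6 fish. In the NBN sums tubb5 was at 2317, 1615 and 2769 CPM in GABAergic and 1292, 5239 and 8674 CPM (lowest, median and highest) in glutamatergic sums (adjusted p = 0.133), and the groups overlapped. CAMK2A, a kinase of mature glutamatergic synapses in mammals, was read in 2 of 14 and 13 of 69 NBN cells and in 5 of 10 and 13 of 15 MN cells.

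The MN gate gave a second set of cells, although of 1 fish, and a fixed size was used there in place of a test. Of 7375 genes read in at least 3 of its 25 members, 27 (0.366%) had a share of cells at least 50 points higher in GABAergic cells and 62 (0.841%) a share at least 50 points lower. Of these, 17 of 27 and 42 of 62 had the same direction in the NBN gate, where 2975 of 6899 genes read in both gates were higher and 3919 lower in GABAergic cells. The 27 included DLX5 and SLC32A1 (each 9 of 10 against 0 of 15), nrxn2a (9 against 2) and NRXN3 (7 against 2) of the presynaptic neurexins, SP9, ZIC1 (7 against 1), ZIC4 (5 against 0), SIX3 (5 against 0), and DLX1, DLX2 and DLX6. nrxn2a did not separate the NBN classes (5 of 14 against 25 of 69), whereas NRXN3 did so in part (5 of 14 against 3 of 69). Among the 62 were NFIX, a nuclear factor I gene (0 of 10 against 14 of 15), NELL2 (1 against 15), the histamine receptor hrh3 (0 against 12), NRN1 or neuritin (0 against 12), BDNF, a neurotrophin (0 against 9), the potassium channel KCNJ6 (0 against 9), BHLHE22, adcyap1b, EOMES, NEUROD1, NEUROD6 and GABRA5. In the NBN gate NFIX was read in 4 of 14 and 38 of 69 cells and BDNF in 1 and 17, while KCNJ6 was read in 3 of 14 and 5 of 69 and hrh3 in 2 and 6. A count of 0 of 10 allows a share of up to 30%, so that none of these genes can be called absent from GABAergic cells.

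**Figure D4:**
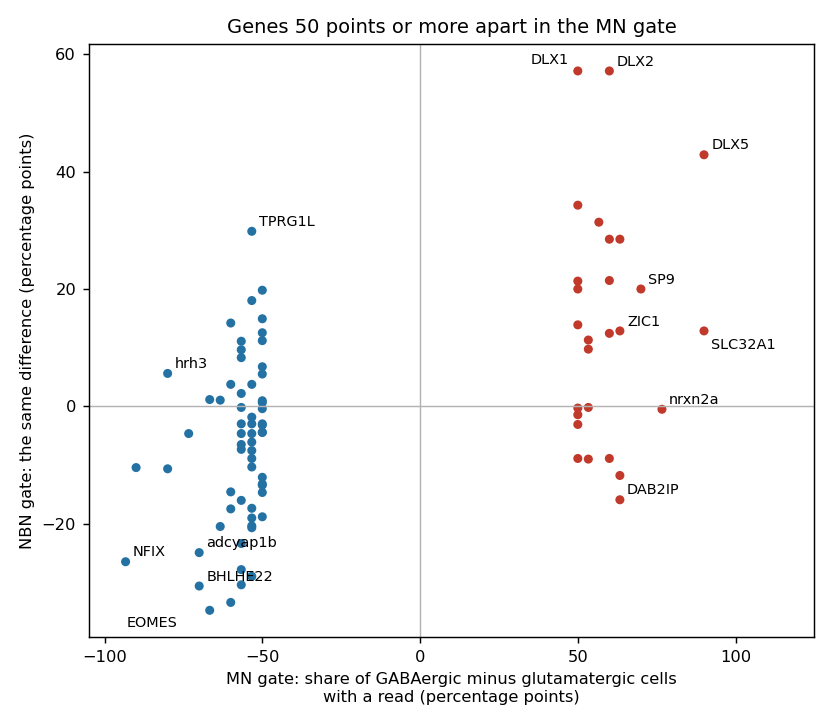
Difference in the share of cells with a read, GABAergic minus glutamatergic, in percentage points, in the MN gate (x axis) and the NBN gate (y axis), for the 89 genes at least 50 points apart in the MN gate (27 higher in red, 62 lower in blue). DLX1, DLX2 and DLX5 stand highest in the NBN gate among the red points, and EOMES stands lowest among the blue ones.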

How the data were processed

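The authors aligned single-end SMART-seq2 reads with GSNAP to GRCz10, counted them on genes with featureCounts 1.5.3 (tools and build per the submitters' notes), and deposited raw counts of 32266 genes in 370 cells, without normalization. Here, cells passed with log10 reads above 4.5, log10 genes with more than 1 read between 2.7 and 3.9, under 50% of reads in the top 50 genes and under 20% on 13 mitochondrial genes. The members and gene lists were chosen with earlier results of these data known. Gene symbols matched 26433 identifiers, and 14 listed names were not found.

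Counts were summed per fish and class (at least 3 cells), without the 5 identifiers of the rule, and fitted with edgeR 4.0.16 (quasi-likelihood, TMM, filterByExpr) in R 4.3.3, with DESeq2 1.42.0 and limma 3.58.1 as alternatives. The same fish gave both classes, so they are paired, yet deviations of the sums of 1 fish from their class means correlated at r = -0.0513, 0.0623 and 0.0246 in fish 2, 4 and 5 over 2000 genes. Blocked values are given where they change a call. A fish label that follows plates served as an alternative. On simulated sums for this comparison (7462 genes), edgeR recovered 10.0% of genes changed 16-fold and 58.0% of those changed 256-fold, and 2.00% and 24.0% with the block. False calls numbered 5 without the block and 0 with it. The simulated sums shared a mean profile, with changes in both directions, no shift over all genes and no fish effect. These shares therefore hold for that setting, which differs from the real sums. Named genes were the members of the lists and, by rule, up to 10 genes a direction with the largest change among those called, at 20 CPM or more in the higher class and with 1 direction in all fish that gave both sums, or the 5 smallest p where fewer than 5 passed. Which list members are printed was decided with values known. Limits on shares of 0 use 3 counts, and intervals are 95% exact. p-values of the fits measure the spread between sums, which on the GABAergic side came from fish 2, 4 and 5 only, at 3 cells each. That spread includes the sampling of few cells. Only these 3 fish gave both sums, so the class contrast of the blocked fit rests on them. Python 3.11.15 served for the rest. Some measured genes are not reported here.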

Additional observations from a re-analysis of the deposited data

Results flagged for a closer look

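Among the 6 glutamatergic sums, 1 sum stood far from the other 5 for 3 of 19 sets of values examined. The genes were chosen from these same data, so no chance rate is set beside this count and no excess is read from it. CITED1 was at 4.68 CPM and FBXW7 at 9.37 CPM in the fish of batch bfx811, each the highest of its group and still below the mean of the GABAergic sums. NEUROD6 (the identifier at 0 in all GABAergic sums) was at 391 CPM in fish 1, against 65.6 to 146.8 CPM in the other fish.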

How the results depend on the processing

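The share of tested genes called was 0.121%. It became 23.6% with DESeq2, 0.067% with RLE size factors, 0.426% with no filter on low counts, 0.0143% with plates in place of fish, 0.162% when a class needed 5 or more reads, 0.0268% with limma on mean log2(CPM + 1) and 1.31% with sums of 1 or more cells, an alternative chosen after seeing the data. Without EBF3 cells it was 1.6%, from a fit of 1 GABAergic sum (fish 5, 3 cells) against 3 glutamatergic sums, in which the lone sum is assumed to vary like the others, so the value is not comparable with the rest. Thinning also left 1 GABAergic sum and the 5-read rule 2. With the replicate block it was 0.0804%. Leaving out 1 fish gave 0 to 0.471%. Of the 9 calls, 8 were shared with DESeq2, 9 with the fit without a filter, 6 with the 5-read rule, 5 with RLE, 3 with the block and 2 with sums of 1 or more cells. The causes were not tested. The 19 genes followed through the alternatives kept their direction in each one that gave a value. This was largely set in advance, so no stability is read from it. Many of the 19 were at 0 in every sum of 1 class. Those named by the rule also had to show 1 direction in all fish that gave both sums. Sums of at least 5 cells could not be fitted, since no GABAergic sum reached that number.

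The mean difference in median reads ranged from -18605 (without fish 2) to 55036 when 1 fish was left out, and that in genes from -434 to 57.5 (without fish 5). The share of NBN cells in the glutamatergic class was 33.5% when 5 reads were required and 32.3% after thinning, against 42.1%. Precision is limited by 3 GABAergic sums of 3 cells each and by 1 fish in the MN gate.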

Other observations

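Dorsal telencephalic factors were read in most NBN cells with neither kind of transmitter gene, and DLX genes in few. Of the 73 NBN cells with neither a decarboxylase nor an SLC17A6 read, TBR1 was read in 40, EOMES in 19, any EOMES, NEUROD or BHLHE22 gene in 48 and EBF3 in 25, while a DLX gene was read in 4 (5.48%, 1.51 to 13.4). OLIG2, a factor of the oligodendrocyte lineage, was read in 12 of them, against 1 of 14 GABAergic and 3 of 69 glutamatergic cells. Of the 8 NBN cells with reads of both kinds, 5 had at least 27 reads of each, none had a DLX read, and EBF3 was read in 5 and TBR1 in 3. The 1 such cell of the MN gate had 4 decarboxylase and 305 SLC17A6 reads, and it had SLC32A1 and DLX reads. Whether such cells hold both transmitters or 2 cells was not tested.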
